A study of Mus musculus with 75 samples.

Results

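The cerebellins are a family of 4 genes in the mouse, Cbln1, Cbln2, Cbln3 and Cbln4, and all 4 were measured among 21552 genes on 75 arrays of medulloblastoma tissue. They were taken by gene symbol, with the probe set of highest mean where a gene had several, and each treated group was set against vehicle of the same schedule and time. The family was chosen by the fall of Cbln4 at 36 h in these same comparisons, so differences of the members between treated and vehicle arrays are given below as descriptions, without a test. The tumours were allografts of medulloblastoma from Ptch1+/- mice grown in nude CD1 hosts, and the hosts received either vehicle or MK4101, which blocks sonic hedgehog (SHH) signalling. The protein of Ptch1 is the hedgehog receptor that restrains signalling, and every group, vehicle included, carries tumour of that genotype and host tissue of the nude CD1 strain.

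The single-dose schedule (QD) comprised 61 arrays. Vehicle was sampled at 1, 6, 12, 24 and 36 h on 5, 5, 4, 5 and 3 arrays. The dose of 40 mpk (the unit as labelled) was sampled on 4, 5, 3, 4 and 3 arrays at those times, and the dose of 80 mpk on 5, 3, 4, 4 and 4 arrays. The multiple-dose schedule (BID) comprised 14 arrays, split at 24 h into 4 with vehicle and 1 with 80 mpk, and at 36 h into 5 with vehicle and 4 with 80 mpk. Whether the replicates of a group are different animals, or grew from 1 tumour line, is not in the labels, so errors and p-values measure the spread between these samples. Host age is not given in the sources used here.

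Cerebellins are secreted proteins of the C1q family that organise synapses. Cbln1 bridges neurexins on the presynaptic side and delta glutamate receptors on the postsynaptic side. In the cerebellum the family is best known for products of granule neurons that hold the synapses between parallel fibres and Purkinje cells. Medulloblastoma of the SHH class arises from the precursors of those granule neurons, which divide under SHH and switch to synaptic genes as they mature.

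The promoters of the member that fell, Cbln4, and of the granule neuron member Cbln3, which did not fall in that way, are shown so that the DNA around both starts can be compared. Each window runs from 250 bases before to 50 bases after the gene start in the RefSeq annotation of GRCm38.p6, at chr2:172043417-172043716 for Cbln4 and chr14:55884207-55884506 for Cbln3, both on the minus strand. Capitals mark matches to 3 motifs, which were chosen after the sequences had been seen: the Gli motif GACCACCC, the E-box CAGATG and the GC box GGGCGG, each searched on both strands.
Cbln4: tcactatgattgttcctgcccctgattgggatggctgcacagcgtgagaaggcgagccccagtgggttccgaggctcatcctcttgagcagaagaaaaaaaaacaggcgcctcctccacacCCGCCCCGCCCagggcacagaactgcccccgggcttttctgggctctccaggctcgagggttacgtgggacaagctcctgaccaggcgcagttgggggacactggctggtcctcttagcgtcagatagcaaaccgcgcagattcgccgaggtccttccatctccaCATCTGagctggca
Cbln3: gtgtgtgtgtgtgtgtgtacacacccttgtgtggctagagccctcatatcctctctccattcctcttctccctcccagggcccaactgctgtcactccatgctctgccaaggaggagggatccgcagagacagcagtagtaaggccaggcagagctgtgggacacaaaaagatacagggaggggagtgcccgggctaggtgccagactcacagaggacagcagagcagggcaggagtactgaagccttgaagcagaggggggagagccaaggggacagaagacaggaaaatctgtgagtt

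The Cbln4 window held 2 GC boxes that share 1 base, at bases 122 to 127 and 127 to 132, and 1 E-box at bases 287 to 292, counted from the 5′ end of the window. The Cbln3 window held none of the 3 motifs. No match was listed for Cbln2, whose window is not printed, and Cbln1 had no promoter entry in the sources used here. Neither printed window held the Gli motif, which was present in 0.807% of 32851 RefSeq promoter windows of 300 bases. The E-box was present in 17.2% of those windows and the GC box in 35.7%. A match is a description of these letters, and the absence of a match says only that the letters are not in the window.

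Each array gives 1 intensity per probe set on a linear scale with an array mean of 1.000, and folds and differences are on the log2 scale unless stated. Correlations between arrays over all probe sets were at least 0.941. Granule neuron lineage genes varied widely in level, with Zic1, Neurod1 and Atoh1 above 99.6%, 98.6% and 99.3% of genes by mean level. The list of granule neuron progenitor genes ranged from 10.8% (Zic5) to 99.6% (Zic1). That of granule neuron maturation genes ranged from 23.0% (Gabrd) to 98.6% (Neurod1). Host skeletal muscle entered some samples: the mean log2 of 8 muscle genes was above 0 on 23 arrays, called muscle-rich here, of which 6 were vehicle and 17 treated arrays. The compound's effect on the pathway was checked with Gli1, the transcriptional output gene of SHH signalling, which under 80 mpk at 6 h lay at 0.156 to 0.199 against 2.60 to 3.01 in vehicle, a difference of -4.00 ± 0.22 (SE; limma, adjusted p = 3.7e-21).

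Cbln4, reported to bind the netrin receptors Dcc and neogenin as well as neurexins, had similar means in the vehicle groups and was far lower in the late treated groups. In single-dose vehicle its geometric mean intensity was 0.886, 0.720, 0.867, 0.737 and 0.687 at 1, 6, 12, 24 and 36 h, with SDs between 0.10 and 0.46 (log2; n = 3 to 5). After 80 mpk the means were 0.648, 0.622, 0.534, 0.159 and 0.143 at those times, and after 40 mpk 0.645, 0.666, 0.444, 0.235 and 0.198. The lowest mean of any group, 0.0784, was that of multiple 80 mpk doses at 36 h. In bulk tissue, fewer cells of a type and less RNA per cell cannot be told apart.

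**Figure D1:**
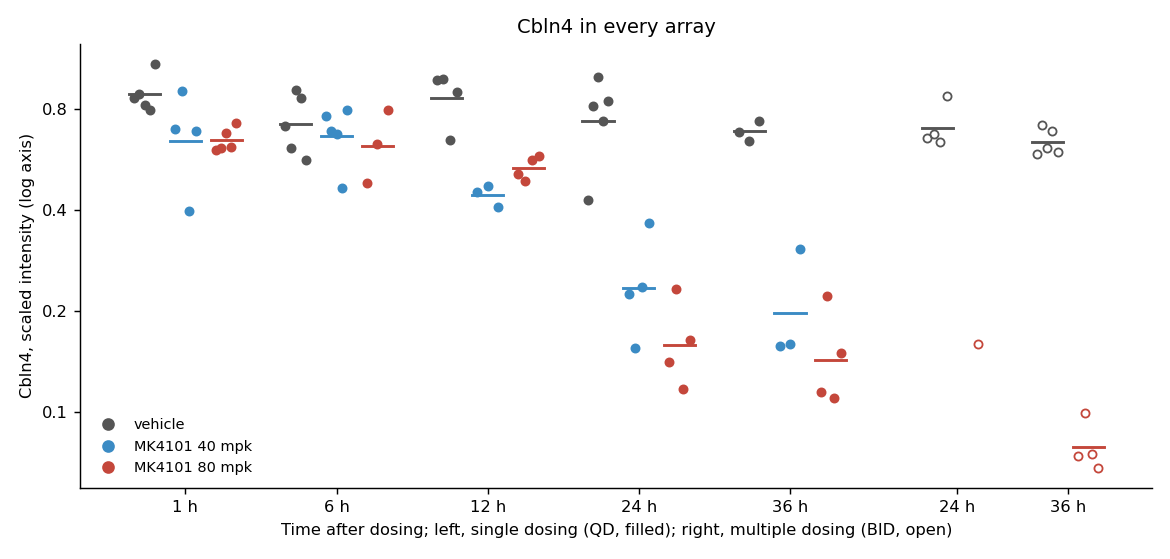
Cbln4 intensity on every array by time (h), on a log axis, for vehicle, 40 mpk and 80 mpk (filled points single dose, open points multiple dose; horizontal lines are geometric means). At 24 and 36 h every treated array lies below every vehicle array of its schedule and time, and the 4 arrays of multiple 80 mpk doses at 36 h, at 0.0683 to 0.0996, are the lowest group.

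At 1 h the vehicle arrays read 0.861, 0.887, 0.826, 0.794 and 1.09 for Cbln4, and the 80 mpk arrays read 0.606, 0.613, 0.681, 0.618 and 0.728. All 5 treated arrays lay below all vehicle arrays, a difference of -0.45 ± 0.20 (SE), while the 40 mpk arrays (0.398 to 0.903) overlapped them with a difference of -0.46 ± 0.21. With 80 mpk at 1 h, 1 of the 4 members lay below vehicle on every array, against 0.496% of all genes. Nothing is read from that share, since the family was chosen by the fall of this member at 36 h. At 1 h limma called 0 of 21552 genes at either dose, with 2290 genes (40 mpk) and 1325 genes (80 mpk) at an unadjusted p under 0.05. At 6 h both doses overlapped vehicle for Cbln4, with differences of -0.11 ± 0.20 for 40 mpk and -0.21 ± 0.23 for 80 mpk.

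At 12 h Cbln4 read 0.980, 0.986, 0.648 and 0.901 in vehicle. It read 0.453, 0.472 and 0.409 after 40 mpk, and 0.512, 0.488, 0.563 and 0.579 after 80 mpk. At each time the 2 doses share their vehicle arrays. Both treated groups lay wholly below vehicle, and the 40 mpk arrays all lay below the 80 mpk arrays, so the lower dose had the lower level at this time. The differences from vehicle were -0.96 ± 0.24 for 40 mpk, a 1.95-fold lower mean, and -0.70 ± 0.23 for 80 mpk, a 1.62-fold lower mean. Among the 4 members, 1 lay below vehicle on every array at each dose, against 6.79% (40 mpk) and 6.84% (80 mpk) of all genes, from which nothing is read.

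At 24 h Cbln4 read 0.428, 0.817, 0.995, 0.740 and 0.846 in vehicle, with 1 array well under the others. It read 0.226, 0.156, 0.236 and 0.365 after 40 mpk, and 0.141, 0.233, 0.118 and 0.164 after 80 mpk. Neither treated group overlapped vehicle, even at that low vehicle array, while the 2 doses overlapped each other. The differences were -1.65 ± 0.21 (3.14-fold lower) for 40 mpk and -2.22 ± 0.21 (4.65-fold lower) for 80 mpk. By size of fall Cbln4 stood at rank 17 and rank 21 of 21552 genes in these comparisons.

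At 36 h after a single dose Cbln4 read 0.684, 0.643 and 0.735 in vehicle. It read 0.158, 0.160 and 0.306 after 40 mpk, and 0.115, 0.221, 0.110 and 0.150 after 80 mpk. Treated and vehicle arrays were apart at both doses, and 1 of the 40 mpk arrays stood above all other treated arrays. The differences were -1.80 ± 0.26 (3.47-fold lower) and -2.26 ± 0.24 (4.80-fold lower), and the 80 mpk arrays differed from the 40 mpk arrays by -0.47 with overlap. By size of fall Cbln4 stood at rank 2 at 40 mpk, between Dcpp2 (-2.06) and Dcpp1 (-1.62), and at rank 1 at 80 mpk, before Ssu2 (-2.13) and Msmo1 (-2.11). The median difference of all genes was -0.02 and -0.04.

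With multiple doses, Cbln4 read 0.587, 0.715, 0.613, 0.690 and 0.597 in vehicle at 36 h, against 0.0741, 0.0996, 0.0751 and 0.0683 after 80 mpk. The treated arrays clustered closely (SD 0.24 on the log2 scale, n = 4) and far below vehicle, a difference of -3.02 ± 0.21 or an 8.14-fold lower mean. It was the 1 member below vehicle on every array, as were 12.9% of all genes, from which nothing is read. Only Wif1, a secreted Wnt inhibitor, had a lower difference (-4.70), and the histone gene H2ac11 followed (-3.01). Against the single 80 mpk dose at 36 h the difference was -0.87, with no overlap between these treated arrays. At 24 h the only array of multiple 80 mpk doses read 0.159, against 0.658, 0.675, 0.638 and 0.873 in vehicle, a difference of -2.15 with no replicate check.

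The deposited values carry no call of presence, so the distance of low values from background is not known. In vehicle at 36 h Cbln4 stood above 75.1% to 77.0% of probe sets on its array with single dosing and above 74.1% to 76.6% with multiple dosing. It stood above 49.2% to 61.1% after a single 80 mpk dose and above 36.8% to 46.3% after multiple doses. At these low ranks the fold may understate a change in RNA.

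Markers of other tissues moved in the same comparisons. At 24 h the fibroblast list was higher for 4 of 6 genes (40 mpk) and 6 of 6 genes (80 mpk) by limma, and its mean log2 was 2.33 to 4.13 and 3.18 to 4.25 against 1.84 to 3.29 in vehicle. The macrophage list was higher there for 5 and 6 of 7 genes. With multiple doses at 36 h all 6 fibroblast genes were higher, at a list mean of 3.78 to 4.60 against 1.51 to 2.64, and so were 6 of 7 macrophage genes, at 2.07 to 2.54 against 0.41 to 1.28. With a single dose at 36 h the fibroblast list had 0 genes called at either dose (0 and 2 at an unadjusted p under 0.05). Its mean log2 was still 2.97 to 3.33 (40 mpk) and 2.79 to 3.67 (80 mpk) there, against 1.64 to 3.18 in vehicle. The group means were 3.16 and 3.30 against 2.39. In the same comparisons the macrophage list had 0 of 7 called at 40 mpk (5 at an unadjusted p under 0.05). At 80 mpk 6 of 7 were higher, at 1.85 to 2.14 against 0.14 to 1.62. Endothelial genes were higher for 2 of 5 (40 mpk) and 4 of 5 (80 mpk) at 24 h, at a list mean of -2.16 to -0.84 and -1.49 to -0.42 against -2.39 to -1.78 in vehicle. With multiple doses at 36 h 4 of 5 were higher, at -1.22 to -0.05 against -2.21 to -1.70, and with a single dose at 36 h 0 were called by limma (1 and 0 at an unadjusted p under 0.05). None of the 8 muscle genes was called by limma at 24 or 36 h, with 6 at an unadjusted p under 0.05 for 40 mpk at 24 h and 0 in the others, and no marker value was 0.

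Muscle-rich arrays held the lowest Cbln4 values at 40 mpk. At 24 h the 3 muscle-rich arrays of that dose read 0.156 to 0.236 and the other read 0.365, and without all muscle-rich arrays the difference was -0.96 in place of -1.65. At 36 h the 2 muscle-rich arrays read 0.158 and 0.160 and the other 0.306, which still lay below the 3 vehicle arrays, and the difference was -1.17 in place of -1.80. The fall after 80 mpk was about as large without such arrays, at -1.97 (24 h), -2.16 (36 h) and -3.17 (multiple doses at 36 h). With the muscle and fibroblast means as covariates the multiple-dose difference was -2.40 and those of 80 mpk at 24 and 36 h were -1.75 and -1.97. The part of the macrophage and endothelial genes in these differences was not tested.

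In the cortex Cbln4 is also known as a product of inhibitory interneurons. A list of 5 inhibitory interneuron genes (Gad1, Gad2, Pax2, Slc32a1, Slc6a5) had a mean log2 between -4.70 and -4.27 on every array. By mean level over the arrays, Pax2 stood above 34.0%, Slc6a5 above 15.2%, Gad1 above 11.3%, Slc32a1 above 9.5% and Gad2 above 4.6% of genes. The cell source of Cbln4 was not tested.

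The courses in time of Cbln4 and Gli1 differed at 1, 6 and 36 h after single doses, while both genes were low at 12 and 24 h. At 12 h the geometric mean of Gli1 was 0.217 (40 mpk) and 0.115 (80 mpk) against 2.57 in vehicle. At 24 h it was 0.979 and 0.253 against 2.30. In these comparisons every treated array lay below vehicle for Cbln4 too. At 1 h the geometric mean of Gli1 was 2.72 (40 mpk) and 2.60 (80 mpk) against 2.41 in vehicle. Cbln4 differed from vehicle at 1 h by -0.46 (40 mpk) and -0.45 (80 mpk). Under 40 mpk Gli1 was lower by 3.22 at 6 h (difference -3.22; limma, adjusted p = 1.4e-19), when Cbln4 overlapped vehicle, and it read 3.65, 3.59 and 2.87 at 36 h against 2.75, 2.26 and 2.75 in vehicle (difference 0.38 ± 0.25; limma, adjusted p = 0.572). Under 80 mpk Gli1 lay at 2.30, 2.64, 3.19 and 2.58 at 36 h, a difference of 0.05 ± 0.23 (limma, adjusted p = 0.936), while Cbln4 stood at its lowest single-dose level. With multiple doses at 36 h Gli1 was still lower, at 0.190, 0.508, 0.607 and 0.632 against 2.64 to 3.62 in vehicle, a difference of -2.90 ± 0.21 (limma, adjusted p = 1.4e-18). The hedgehog target Ptch1 differed by -0.25 at 36 h after a single 80 mpk dose (limma, adjusted p = 0.228) and by -1.68 after multiple doses (limma, adjusted p = 3.58e-20). Hhip, a further target that binds hedgehog ligands, differed by -0.03 and -1.26 in those comparisons (limma, adjusted p = 0.972 and 1.08e-05).

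**Figure D2:**
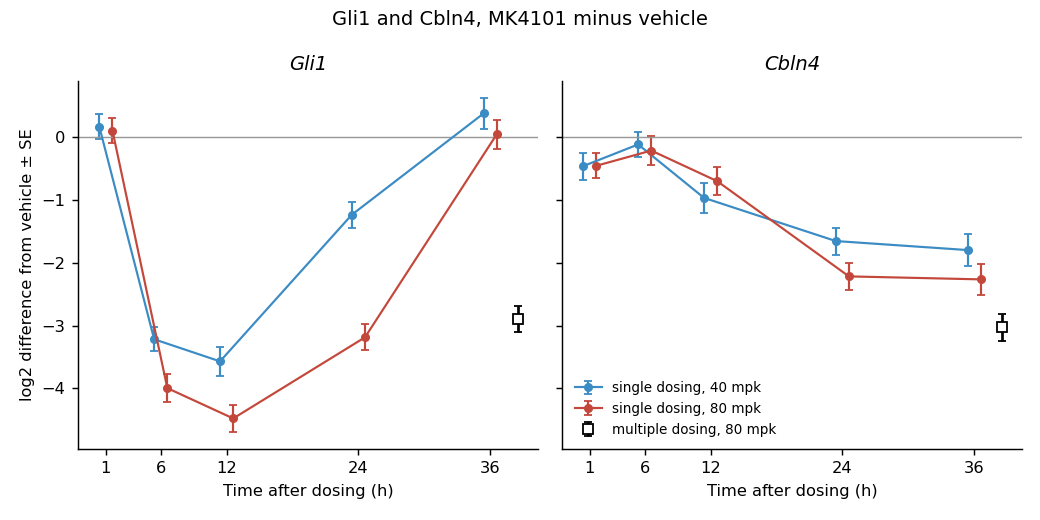
Log2 difference from vehicle (± SE) against time (h) for Gli1 and Cbln4 after 40 mpk (blue), 80 mpk (red) and multiple 80 mpk doses (open square). Gli1 is lowest at 6 and 12 h and lies at 0.38 and 0.05 at 36 h after single doses, where Cbln4 lies at -1.80 and -2.26.

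Cbln1, the granule neuron cerebellin needed for the parallel fibre synapse, moved by much less and mostly upward in the middle of the time course. At 6 h the vehicle arrays read 2.31, 2.88, 3.93, 3.58 and 3.27. The 80 mpk arrays read 3.83, 4.68 and 4.32, and the 40 mpk arrays 4.69, 3.95, 4.74, 3.69 and 3.70. Most treated arrays were high but 1 vehicle array overlapped both groups, and the differences were 0.39 ± 0.12 (40 mpk) and 0.44 ± 0.14 (80 mpk).

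At 12 h Cbln1 read 3.05, 3.52, 2.82 and 3.39 in vehicle. It read 4.39, 4.16 and 4.61 after 40 mpk and 4.56, 3.61, 4.39 and 4.75 after 80 mpk. Every treated array lay above every vehicle array at both doses, with differences of 0.46 ± 0.15 (1.38-fold) and 0.43 ± 0.14 (1.35-fold). At 40 mpk 2 of 4 members and at 80 mpk 1 of 4 lay above vehicle on every array, against 10.4% and 5.54% of all genes, from which nothing is read. By 24 h the groups overlapped, with Cbln1 differences of -0.08 ± 0.13 and -0.10 ± 0.13. With the muscle and fibroblast means as covariates these 24 h differences were 0.19 (40 mpk) and 0.23 (80 mpk).

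At 36 h Cbln1 read 3.38, 2.82 and 3.07 in vehicle. It read 2.70, 2.65 and 2.79 after 40 mpk, just below vehicle, and 3.94, 3.62, 3.50 and 3.46 after 80 mpk, just above vehicle. The differences were -0.18 ± 0.16 and 0.24 ± 0.15, each close to its standard error, so the separation of the arrays rests on narrow gaps. At 80 mpk 1 of 4 members lay above vehicle (8.44% of genes) and 1 below (12.3%), and at 40 mpk 3 lay below (8.26%), with nothing read from these shares. After multiple doses Cbln1 read 2.95, 4.47, 3.92 and 4.34 against 3.17, 2.94, 3.23, 2.99 and 3.62, groups that overlapped at the lowest treated array, with a difference of 0.28 ± 0.13. With the muscle and fibroblast covariates this difference was 0.75, and those after a single dose at 36 h were -0.01 (40 mpk) and 0.44 (80 mpk).

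**Figure D3:**
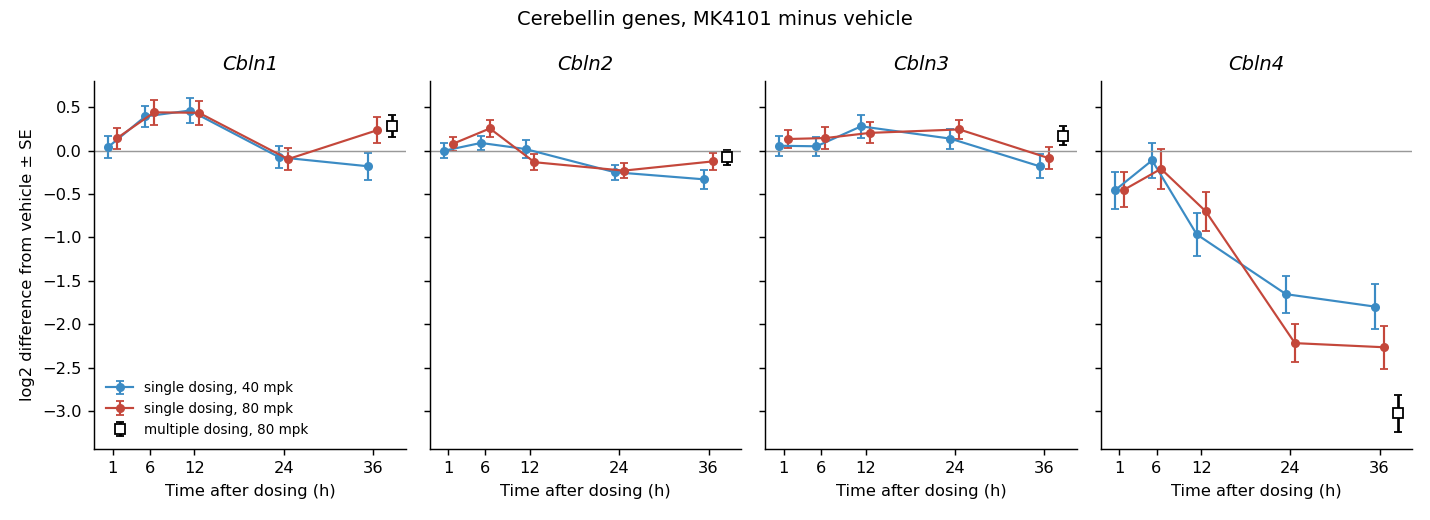
Log2 difference from vehicle (± SE) of Cbln1, Cbln2, Cbln3 and Cbln4 against time (h), 1 panel per gene, for 40 mpk (blue), 80 mpk (red) and multiple 80 mpk doses at 36 h (open square). Cbln4 falls to -3.02, while the other 3 members, with the brighter Cbln3 probe set, stay between -0.33 and 0.46. The dimmer Cbln3 probe set, not shown here, reaches 0.71 at 12 h after 80 mpk.

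Cbln2, a cerebellin known mainly from forebrain circuits, stood near the middle of the probe sets, and its shifts were small. At 24 h it read 0.119, 0.133, 0.138, 0.123 and 0.125 in vehicle, 0.104 to 0.110 after 40 mpk and 0.105 to 0.112 after 80 mpk. All treated arrays lay below vehicle, with differences of -0.25 ± 0.09 and -0.23 ± 0.09. Cbln2 and Cbln4 were thus the 2 members below vehicle at 24 h at each dose, against 11.3% (40 mpk) and 14.3% (80 mpk) of all genes, with nothing read from the share.

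At 36 h Cbln2 read 0.120, 0.112 and 0.135 in vehicle. It read 0.108, 0.0986 and 0.0856 after 40 mpk, all below vehicle, and 0.134, 0.101, 0.118 and 0.0979 after 80 mpk, overlapping it. The differences were -0.33 ± 0.11 and -0.12 ± 0.10. The opposite side was seen at 6 h, where the 80 mpk arrays (0.143, 0.133 and 0.142) all lay above vehicle (0.103 to 0.130) with a difference of 0.25 ± 0.10, as did 4.31% of all genes. After multiple doses at 36 h the difference of Cbln2 was -0.08 ± 0.09 with overlap.

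Cbln3, a granule neuron cerebellin known to leave the cell only in complex with Cbln1, had 2 probe sets that correlated at r = 0.517 over the 75 arrays. On the brighter one, at 12 h, vehicle read 0.154, 0.125, 0.156 and 0.142 and the 40 mpk arrays 0.188, 0.164 and 0.173, all above vehicle, with a difference of 0.28 ± 0.13. The 80 mpk arrays overlapped vehicle with a difference of 0.20 ± 0.12, and at 24 h, where the 80 mpk difference was 0.24 ± 0.11, the groups overlapped too. At 36 h the differences were -0.18 ± 0.14, -0.09 ± 0.13 and, after multiple doses, 0.17 ± 0.11, all with overlap.

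The other Cbln3 probe set gave larger rises at the same times. At 12 h it read 0.0680, 0.0742, 0.0735 and 0.0953 in vehicle and 0.115, 0.110, 0.127 and 0.158 after 80 mpk, with every treated array above vehicle and a difference of 0.71 ± 0.17. At 24 h both doses lay above vehicle, with differences of 0.45 ± 0.16 (40 mpk) and 0.58 ± 0.16 (80 mpk), and by 36 h the single-dose differences were -0.12 ± 0.20 and 0.07 ± 0.19. The 2 probe sets share the sign of the difference at 6, 12 and 24 h and differ in its size, and the files do not say which part of the transcript each one reads.

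**Figure D4:**
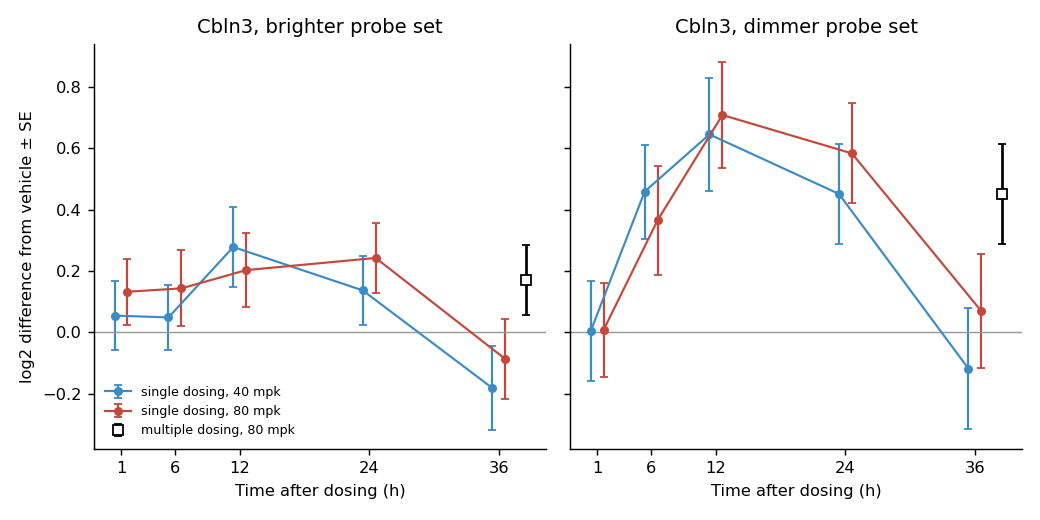
Log2 difference from vehicle (± SE) against time (h) for the brighter and the other, dimmer Cbln3 probe set after 40 mpk (blue), 80 mpk (red) and multiple 80 mpk doses (open square). At 12 h after 80 mpk the brighter set lies at 0.20 and the other at 0.71, and at 36 h after a single dose both lie between -0.18 and 0.07.

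The groups not yet given add small differences. At 1 h Cbln1 read 2.12 to 3.14 in vehicle, 2.12 to 3.71 after 40 mpk and 2.76 to 3.32 after 80 mpk, and the differences of Cbln1, Cbln2 and Cbln3 at that time were between 0.00 and 0.14 with overlap in each. The 40 mpk group at 1 h had the widest spread of all Cbln1 groups (SD 0.33 on the log2 scale, n = 4). The single array of multiple 80 mpk doses at 24 h read 3.09 for Cbln1, inside the vehicle range of 2.32 to 3.19. It read 0.113 for Cbln2, below the vehicle range of 0.114 to 0.139, and 0.152 for Cbln3, above the vehicle range of 0.112 to 0.137. Between the doses, Cbln1 was 0.42 higher at 36 h after 80 mpk than after 40 mpk with no overlap, while the dose groups of Cbln2 and Cbln3 overlapped at every time.

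Contrasts among vehicle arrays did not choose the family, but the vehicle arrays of 36 h entered the comparison that did, so each test is given without them. None of the 4 members passed limma's F test over the single-dose vehicle times of 1, 6, 12 and 24 h (19 arrays), with adjusted p-values of 0.656 (Cbln1), 0.705 (Cbln2), 0.504 (Cbln3) and 0.596 (Cbln4) and unadjusted p-values of 0.246 or more. The ranges of group means were 0.19, 0.13, 0.20 and 0.30, and 6.93% of all genes were called. With the 36 h group in the test the adjusted p-values were 0.758, 0.804, 0.456 and 0.594, with 6.28% of genes called. None passed between multiple and single vehicle dosing at 24 h (limma, adjusted p from 0.371 to 0.994), where 5.51% of genes were called. For Cbln4 the schedules differed by -0.06 ± 0.21 at 24 h and, as a description, by -0.11 ± 0.23 at 36 h.

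Within the 23 vehicle arrays of 1 to 24 h, on deviations from group means, Cbln1 and Cbln4 had the closest relation of the 6 member pairs. Pearson's r was 0.493 (permutation p = 0.0129, adjusted over the 6 pairs 0.0771) and Spearman's rho 0.548 (permutation p = 0.0142, adjusted 0.0854), so neither passed the correction. Pearson's r was 0.649 without the 2 arrays farthest from the median of Cbln1. Over all 31 vehicle arrays it was 0.427, and 0.41 in the 25 of these that were not muscle-rich. The other 5 pairs had r of at most 0.193 in size in the 23 arrays (Cbln3 with Cbln4, -0.193), and Cbln1 with Cbln3 turned from 0.0963 to -0.452 without 2 arrays.

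The receptors and partners of the cerebellins were measured for 6 genes: the neurexins Nrxn2 and Nrxn3, the delta receptor Grid1, its relative's scaffold protein Grid2ip, and the netrin receptors Dcc and Neo1. In each comparison at most 2 of the 6 rose and at most 2 fell. With limma 0 rose and 1 fell at 6 h and at 12 h at either dose, and 2, 1, 3 and 2 genes (40 and 80 mpk at 6 h, then at 12 h) had an unadjusted p under 0.05. Of all genes 0.626% rose and 1.05% fell at 6 h after 40 mpk and 0.575% and 1.18% after 80 mpk, and at 12 h 3.90% and 2.59%, and 3.85% and 5.99%. At 24 h 1 partner rose and 0 fell at 40 mpk, where 14.5% of all genes rose and 12.1% fell, and 1 rose and 2 fell at 80 mpk, where 17.6% rose and 15.3% fell. With multiple doses at 36 h 2 partners rose and 1 fell, where 19.8% of all genes rose and 17.7% fell. At 36 h after a single dose limma called 0 partners (1 at 40 mpk and 0 at 80 mpk had an unadjusted p under 0.05), where 0.677% of all genes were called at 40 mpk and 5.22% rose and 5.64% fell at 80 mpk. The fibroblast, macrophage and endothelial genes given above moved in the same comparisons at 24 h and with multiple doses at 36 h, and the part of the macrophage and endothelial genes in the partner genes was not tested.

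Grid2ip, a scaffold at the delta receptor of Purkinje cell synapses, was lower early. Its arrays lay at 0.348 to 0.538 (40 mpk) and 0.413 to 0.497 (80 mpk) at 6 h, all below the vehicle range of 0.644 to 1.01. The differences were -0.82 and -0.86 (limma, adjusted p = 0.00492 and 0.0146). At 12 h they were -0.73 and -1.03 (limma, adjusted p = 0.0331 and 0.000237), again with all treated arrays below vehicle, and at 24 h -0.10 (adjusted p = 0.773) and -0.56 (adjusted p = 0.0202). At 36 h the single-dose differences were 0.56 and 0.29 and the multiple-dose difference -0.26 (limma, adjusted p = 0.342, 0.477 and 0.341). Of these calls the one for 80 mpk at 12 h held under all alternatives tried, and the multiple-dose difference was -0.52 (limma, adjusted p = 0.0344) without treated replicate 3.

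Dcc rose at 24 h at both doses. It read 5.18 to 7.02 after 40 mpk and 4.49 to 7.36 after 80 mpk against 3.26 to 3.68 in vehicle, with all treated arrays above vehicle. The differences were 0.74 ± 0.13 and 0.83 ± 0.13 (limma, adjusted p = 5.37e-06 and 2.53e-07). With multiple doses at 36 h it read 4.47, 7.53, 7.27 and 6.06 against 3.70 to 4.51, a rise of 0.54 ± 0.13 (limma, adjusted p = 0.000335) with overlap at 1 array. At 36 h after a single dose the differences were -0.17 and 0.08, neither called.

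Neo1, which encodes neogenin, fell after 80 mpk at 24 h, from 5.60 to 7.16 in vehicle to 4.44 to 5.74 (difference -0.34 ± 0.09; limma, adjusted p = 0.00311). It also fell with multiple doses at 36 h, where all treated arrays (4.88 to 6.50) lay below vehicle (7.17 to 8.49), with a difference of -0.44 ± 0.09 (limma, adjusted p = 0.000109). With the muscle and fibroblast covariates these differences were -0.13 and -0.16 and were no longer called (limma, adjusted p = 0.263 and 0.21). Nrxn2 rose with multiple doses at 36 h, at 0.782 to 1.24 against 0.552 to 0.738, by 0.63 ± 0.26 (limma, adjusted p = 0.0476), and this call was lost under several alternatives. Grid1 and Nrxn3 were called in no comparison of the fit reported here. At 24 h after 80 mpk Nrxn3 was called lower with quantile scaling (limma, adjusted p = 0.0415), with array weights (0.0458) and without treated replicate 1 (0.0436), and Grid1 was called lower with only the groups compared in the fit (0.0376).

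**Figure D5:**
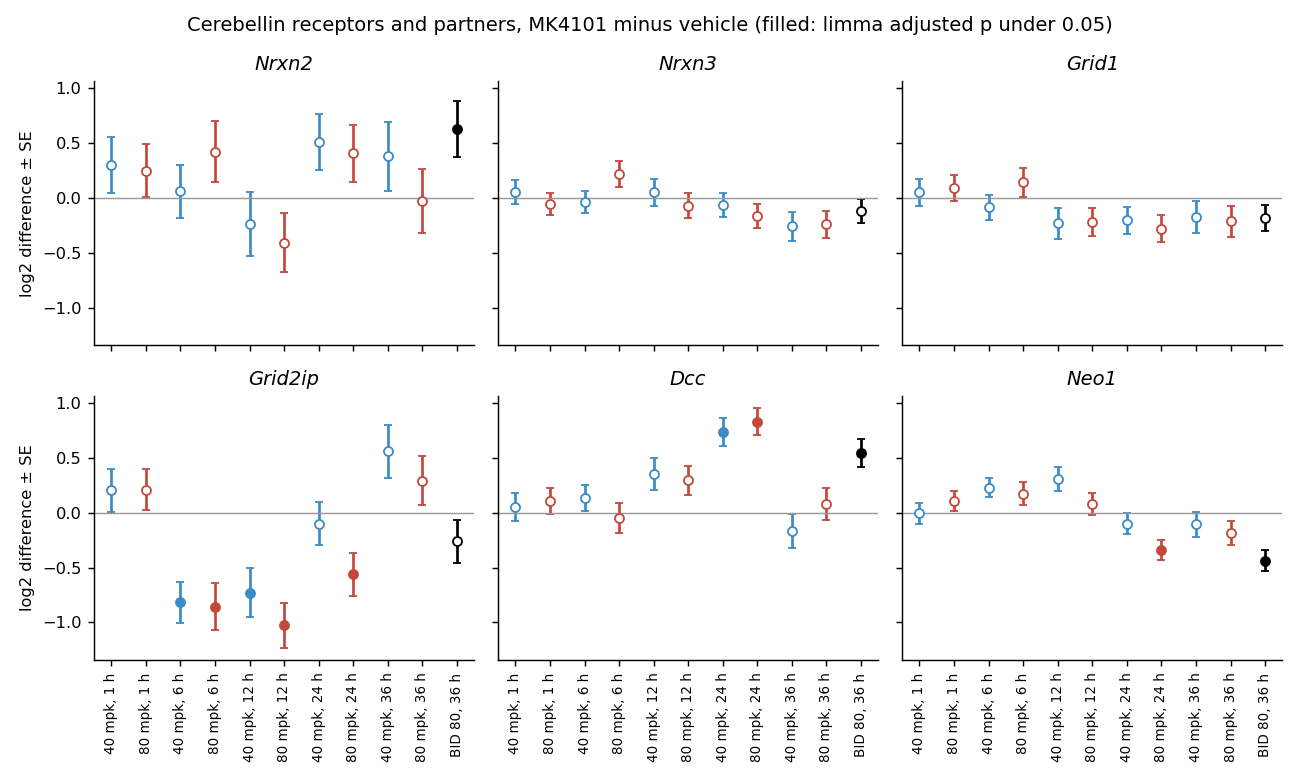
Log2 difference from vehicle (± SE) of Nrxn2, Nrxn3, Grid1, Grid2ip, Dcc and Neo1, 1 panel per gene, by dose and time (40 mpk blue, 80 mpk red, multiple 80 mpk doses at 36 h black), with filled symbols where limma's adjusted p is under 0.05. Grid2ip is filled below 0 at 6 and 12 h at both doses, and Dcc is filled above 0 at 24 h at both doses and at 36 h with multiple doses.

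Among the C1q-like proteins, relatives of the cerebellins, and their receptor Adgrb3 (5 genes), 0 to 1 rose and 0 to 1 fell in each comparison. At 24 h 1 of 5 rose and 1 of 5 fell at each dose, near the share of all genes that rose (14.5% and 17.6%) or fell (12.1% and 15.3%). Adgrb3 rose by 0.72 ± 0.18 after 80 mpk at 12 h (limma, adjusted p = 0.00468) and by 0.58 and 0.54 at 24 h at the lower and the higher dose (limma, adjusted p = 0.00873 and 0.012). C1ql3 fell at 24 h, by 0.39 and 0.36 (differences -0.39 and -0.36; limma, adjusted p = 0.00173 and 0.00291). The Adgrb3 calls at 24 h were lost without treated replicate 4 at 40 mpk (0.43; limma, adjusted p = 0.0788) and, at 80 mpk, without treated replicate 2 (0.43; adjusted p = 0.0727) or without muscle-rich arrays (0.55; adjusted p = 0.0959). Without muscle-rich arrays the C1ql3 call at 40 mpk was lost too (-0.33; limma, adjusted p = 0.29). C1ql3 also differed between the vehicle schedules at 24 h, by -0.34 (limma, adjusted p = 0.0301). C1ql1 fell with multiple doses at 36 h (difference -0.68; limma, adjusted p = 0.0231), a difference of 0.01 with the muscle and fibroblast covariates.

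Other synaptic organizers (24 genes) were called in both directions. At 24 h 7 rose and 1 fell at 40 mpk and 7 rose and 2 fell at 80 mpk, and with multiple doses at 36 h 7 rose and 3 fell, with list medians of 0.06, 0.06 and 0.13 against -0.01, -0.02 and 0.01 over all genes. Of all genes 14.5% rose and 12.1% fell, 17.6% and 15.3%, and 19.8% and 17.7% in those comparisons. The neuronal pentraxin Nptx1, which clusters glutamate receptors, fell early and stayed lower, with differences after 80 mpk of -1.18 at 6 h, -1.59 at 12 h, -2.23 ± 0.20 at 24 h and -0.72 at 36 h (limma, adjusted p = 0.000215, 2.52e-08, 1.27e-14 and 0.0253). Its multiple-dose difference at 36 h was -1.79 ± 0.20 (limma, adjusted p = 1.52e-11). The postsynaptic adhesion gene Lrrc4 rose by 1.08 at 24 h, 0.80 at 36 h and 1.46 ± 0.16 with multiple doses (limma, adjusted p = 1.2e-07, 0.00134 and 1.42e-11). Lrrtm2, another neurexin ligand, rose by 1.11 at 36 h after 80 mpk and by 1.24 with multiple doses (limma, adjusted p = 0.00116 and 3.01e-06).

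Genes of granule neuron maturation (19 measured) mostly rose where they were called. After 80 mpk 4 rose and 0 fell at 12 h, 8 rose and 2 fell at 24 h, and 8 rose and 0 fell at 36 h, and with multiple doses at 36 h 11 rose and 1 fell, with list medians of 0.23, 0.25, 0.37 and 0.57. Of all genes 3.85% rose and 5.99% fell, 17.6% and 15.3%, 5.22% and 5.64%, and 19.8% and 17.7% in those comparisons. After 40 mpk the mean log2 of the list was -0.46, -0.56 and -0.70 at 12, 24 and 36 h, against -0.79, -0.80 and -0.76 in vehicle. At 36 h after 40 mpk the list mean thus lay near vehicle, where the Cbln4 difference was -1.80. Stmn2, a microtubule regulator of growing axons, rose by 1.21 ± 0.12 at 36 h after 80 mpk and by 1.65 ± 0.11 with multiple doses (limma, adjusted p = 5.2e-11 and 2.13e-20). Cntn2, an axonal adhesion gene of early postmitotic granule neurons, rose by 1.10 and 1.52 and Neurod1, a neuronal differentiation factor, by 0.84 and 1.04 in those comparisons (limma, adjusted p of 2.69e-05 or lower). Cbln1, also a gene of mature granule neurons, differed there by 0.24 ± 0.15 and 0.28 ± 0.13.

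Genes of granule neuron progenitors (10 measured) were called in both directions late. After 80 mpk 5 rose and 0 fell at 12 h and at 24 h, 2 rose and 2 fell at 36 h, and with multiple doses at 36 h 5 rose and 1 fell. The shares of all genes that rose were 3.85%, 17.6%, 5.22% and 19.8%, and of those that fell 5.99%, 15.3%, 5.64% and 17.7%. Barhl1, a homeobox gene of the lineage, rose by 1.29 at 12 h and 1.34 at 24 h (limma, adjusted p = 1.8e-15 and 3.68e-18). Atoh1, the factor that specifies granule neuron precursors, was 0.56 higher at 12 h (limma, adjusted p = 0.000827). It fell at 36 h, with differences of -0.59 ± 0.13 after 80 mpk and -0.60 ± 0.12 with multiple doses (limma, adjusted p = 0.00155 and 2.47e-05). The mean log2 of the whole list was higher than in vehicle there, at 0.28 against 0.13 and 0.61 against 0.15. After 40 mpk the list mean was 0.52, 0.44 and 0.19 at 12, 24 and 36 h, against 0.11, 0.07 and 0.13 in vehicle.

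The genes most like each member were found by Pearson's r over the 18 group means of groups with at least 2 arrays, among genes whose group means had an SD of at least 0.3. For Cbln4 these were Cdh20 (0.967), Ssu2 (0.961), Pnpt1 (0.958), Ifitm10 (0.958), Dbi (0.953), Hes5 (0.953), Tex19.1 (0.945) and Fdps (0.942). Their patterns over groups are alike by choice: Hes5, a Notch target gene, differed from vehicle by -1.83 at 36 h after 80 mpk and by -2.62 with multiple doses, and Fdps, an enzyme of isoprenoid and sterol synthesis, by -2.09 and -2.50. For Cbln3 they were Fbxo16 (0.934), Prxl2b (0.915), Cbfa2t2 (0.902), Tgfb2 (0.892) and Tle6 (0.888).

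Lower likeness was found for Cbln1 and Cbln2. The SDs of group means were 0.245 (Cbln1), 0.127 (Cbln2) and 0.182 (Cbln3), against 1.047 for Cbln4. Those of Cbln1, Cbln2 and Cbln3 are under the 0.3 asked of the candidate genes, so their likeness rests on small shifts. The genes nearest to Cbln1 were Diras2 (0.859), Lmo7 (0.785), Rab15 (0.782), Kcnd3 (0.765) and Irs4 (0.762), and those nearest to Cbln2 were Prkg2 (0.815), Cdh3 (0.812), Rspo1 (0.806), Col9a3 (0.795) and Etv5 (0.79). Among the members themselves, over the same group means, Cbln2 and Cbln4 had r = 0.72, Cbln1 and Cbln3 had r = 0.631, and Cbln1 and Cbln4 had r = -0.091. These coefficients describe group means that share treatments and vehicle arrays.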

How the data were processed

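RNA of each sample was labelled with biotin and read on 1 one-colour array. The deposited values are 1 intensity per probe set, and RMA is named per the submitters' processing notes, with no version or settings; the genome build is not given in the sources used here. All deposited intensity values were above 0 and every array mean was 1.000, so they were read as linear and log2 was taken from them without a pseudocount, although log2 values had been assumed in the planned design. Of 43681 probe sets 30342 had 1 gene symbol, updated through RefSeq tables, and 13339 had none and were left out. The brightest probe set stood for each of 21552 genes.

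One mean per group was fitted to all 75 arrays in limma 3.58.1 under R 4.3.3, which left 56 residual degrees of freedom, and p-values were Benjamini-Hochberg adjusted over all genes with a threshold of 0.05. Standard errors are those of this fit. Rises, falls and calls of listed genes follow that threshold. Further values were computed with Python 3.11.15, numpy 2.4.6, pandas 2.3.3 and scipy 1.17.1, with 100000 permutations for pairs, and plotted with matplotlib 3.10.9. The fit was tested on simulated data.

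The members and lists were chosen with earlier results of these data known. The rule named the members, Gli1, Ptch1 and Hhip, every partner gene, up to 4 genes of each other list with the smallest adjusted p, and the genes most like each member. Groups came from the labels. Same-numbered arrays deviated together in 0 of 13 comparisons, so replicate numbers were not used as pairs. Alternatives were the probe set rule, a filter on dim genes, quantile scaling, a pseudocount of 0.05, the variance prior, array weights, the samples in the fit, muscle-rich arrays left out, muscle and fibroblast means as covariates, the replicate block and each array left out.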

Additional observations from a re-analysis of the deposited data

Results flagged for a closer look

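Of 56 checks, each of 1 of the 4 members in 1 group of 4 or more arrays, 3 found an array far from the others, where chance gives about 1 in 20. Checks of different members used the same arrays. Cbln1 in vehicle at 1 h had replicate 1 at 1.08 on the log2 scale, with the nearest array at 1.53. Cbln3 in single-dose vehicle at 24 h had replicate 2 at -2.88, with the nearest at -3.02. Cbln3 after 80 mpk at 24 h had replicate 1 at -2.42.

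Some genes had every treated array on one side of the vehicle mean at one time and on the other side at another time, and these differences between times were not tested. Cbln1 after 40 mpk differed by 0.39 at 6 h, 0.46 at 12 h and -0.18 at 36 h, and Cbln2 after 80 mpk by 0.25 at 6 h, -0.13 at 12 h and -0.23 at 24 h. Nrxn2 differed by 0.42 at 6 h and -0.41 at 12 h after 80 mpk, and by -0.24 at 12 h and 0.51 at 24 h after 40 mpk. Nrxn3 after 80 mpk differed by 0.22 at 6 h and -0.24 at 36 h. Grid2ip after 40 mpk differed by -0.82 at 6 h, -0.73 at 12 h and 0.56 at 36 h, and after 80 mpk by -0.86, -1.03 and -0.56 at 6, 12 and 24 h and 0.29 at 36 h. Dcc after 40 mpk differed by 0.35 at 12 h, 0.74 at 24 h and -0.17 at 36 h. Neo1 after 80 mpk differed by 0.10 at 1 h, 0.17 at 6 h, -0.34 at 24 h and -0.18 at 36 h, and after 40 mpk by 0.23 at 6 h, 0.30 at 12 h and -0.11 at 36 h.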

How the results depend on the processing

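Of 488 member differences under the alternatives 457 moved by less than 1 SD, as did all 384 with 1 array left out. For Cbln4 the moves beyond 1 SD were, without muscle-rich arrays, -0.96 at 24 h and -1.17 at 36 h after 40 mpk, -1.75 at 24 h after 80 mpk with muscle and fibroblast covariates, -1.85 for the single array of multiple doses at 24 h with a pseudocount of 0.05, and, with multiple doses at 36 h, -2.40 with muscle and fibroblast covariates and -2.42 with a pseudocount of 0.05. The member tests among vehicle arrays kept their side of the threshold in all 115 combinations of a test and an alternative. Among the alternatives was one without 36 h, chosen after seeing the data. With replicate number as a block (replicate block), the Cbln4 differences at 36 h were -1.80, -2.28 and -3.00 (40 mpk, 80 mpk, multiple doses).

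Counts of called partner genes rest on 0 to 3 genes. At 24 h after 80 mpk 3 fell with quantile scaling, array weights or only the groups compared. Without muscle-rich arrays the fallers were 0 at 6 h at both doses, 0 at 12 h after 40 mpk and 1 at 24 h after 80 mpk, while the Grid2ip differences at 6 and 12 h were -0.65 (40 mpk), -0.94 (80 mpk) and -0.74 (40 mpk, 12 h); with only the groups compared they were 0 at 6 h after 80 mpk and 0 at 12 h after 40 mpk; with covariates they were 0 at 24 h after 80 mpk and 0 with multiple doses at 36 h. The risers were 1 at 12 h after 40 mpk with array weights or the replicate block, and 1 with multiple doses under the mean of probe sets, quantile scaling, array weights, the replicate block or covariates. With 1 array left out the counts were 0 to 1 at 6 h after 80 mpk (fallers) and at 12 h after 40 mpk (risers and fallers), and 1 to 2 at 24 h after 80 mpk (fallers) and with multiple doses (risers and fallers). With multiple doses Nrxn2 reversed to -0.0358 with the mean of its probe sets (limma, adjusted p = 0.857), and C1ql1 to 0.0142 with covariates; the cause was not tested. Quantile scaling moved the median of all genes by at most 0.05. The number of arrays, 3 to 5 in most groups, and the lack of a presence call for dim probe sets limit these comparisons.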
